A study of Mus musculus with 10 samples.

Results

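The endoplasmic reticulum (ER) folding and secretory pathway was followed here through 48 genes, of 40690 in the count table. They encode the chaperones that fold secreted proteins, the translocon and the enzymes that add glycans, the machinery of ER-associated degradation, and the coats and receptors of transport between the ER and the Golgi. The genes were listed by symbol and each matched 1 Ensembl gene. RNA was measured in the heart ventricles of male C57BL/6 mice aged 10 weeks. In the sham group (n = 5) the mice had undergone the sham form of an operation for ischemia-reperfusion, which serves as its surgical control. In the naive group (n = 5) no operation had been performed. Neither the time between operation and collection nor any genetic change is given in the sources used here. Each sample is a piece of whole ventricle, so that fewer cells of a type and less RNA per cell cannot be told apart.

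Proteins that a cell secretes or places in its membranes enter the ER through the SEC61 channel, receive glycans there, and are folded by chaperones, disulfide isomerases and prolyl isomerases. Folded proteins leave in COPII-coated vesicles. Escaped ER residents are brought back by KDEL receptors, and proteins that fail to fold are exported and degraded. When unfolded proteins build up, the sensors IRE1 (Ern1), ATF6 and PERK (Eif2ak3) start the unfolded protein response, whose factors XBP1 and ATF6 bind ER stress elements in chaperone promoters. In the heart, the fibroblasts that make collagen are a cell type with a large secretory load. Counts per gene do not show the splicing of Xbp1 or the cleavage and phosphorylation of the sensors, so they do not measure sensor activity.

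Library totals were 10654107 to 21537135 counts in sham and 9683181 to 17577906 in naive ventricles. A floor of 3 counts corresponded to 0.122 to 0.357 CPM (counts relative to the size of the library, scaled with TMM factors here and below). Sham 1 lay nearer to the naive libraries than did the other sham libraries on the first principal component of all genes, at -24.6 against -36.6 to -40.9, with naive libraries at 30.5 to 40.3. On the second component naive 1 to 5 stood at 38.7, 11.9, 3.93, -26.5 and -28.0, falling with library number. Sham 1 to 5 stood there at 16.4, 4.96, 2.89, -14.7 and -9.52. Heart muscle markers, which define the labelled tissue, summed to 55155 to 62910 CPM in sham and 73350 to 77554 CPM in naive libraries, and 7 of 8 were lower in sham. The sum of 8 fibroblast markers was 13619 to 25139 CPM in sham and 1325 to 1972 CPM in naive libraries, with 7 higher. Most of that sum was collagen RNA, with sham means of 8598 CPM for Col1a1, 6944 for Col3a1 and 3159 for Col1a2. Postn (3.58 ± 0.40 on the log2 scale) and Lum (1.34 ± 0.33) were also higher. Pdgfra (0.56 ± 0.12) and Tcf21 (0.68 ± 0.13) rose less, and Dcn (0.31 ± 0.24) did not pass. Macrophage markers summed to 975 to 1260 CPM in sham and 315 to 387 CPM in naive libraries, with 8 of 8 higher. The fibroblast and macrophage sums were higher in sham, as were most of the called members described below, while the heart muscle sum was lower. The part of these sums in the members' differences was not tested. Markers of B and plasma cells, whose ER is large, summed to 33.1 to 46.4 CPM in sham and 16.5 to 21.2 CPM in naive libraries. Most of that sum was Sdc1, which other cell types also make. Of the 11 markers 5 could be tested: Sdc1 and Cd79b (1.37 ± 0.41 on the log2 scale) were higher, Prdm1 (-0.52 ± 0.17) was lower, and Mzb1 and Irf4 did not pass. Over the 5 sham and 5 naive libraries there were 86 and 66 counts of Mzb1, 10 and 2 of Jchain, and 6 and 5 of Tnfrsf17. Of the other marker lists, endothelial markers were higher in 1 case and lower in 2 of 7, smooth muscle markers higher in 1 of 6, the 1 testable T cell marker did not pass, and 2 testable neutrophil markers were higher. Neutrophil markers summed to 14.6 to 31.5 CPM in sham and 1.90 to 4.61 CPM in naive libraries.

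Most members that passed the test had more RNA in sham than in naive ventricles, led by Fkbp11, Kdelr3 and Pdia5, while Atf6, Herpud1 and Sel1l had less. The higher members lay mainly among the disulfide isomerases, the prolyl isomerases, the translocon and glycosylation genes and the vesicle transport genes. BiP and its partners were higher about as often as all genes in the edgeR fit used here, and more often in some other fits. ER-associated degradation went both ways. Of the 48 members, 47 were abundant enough to be tested, all but Derl3. At an adjusted p under 0.05 in edgeR's quasi-likelihood test over all 13622 genes tested, 25 members were higher in sham, 3 were lower and 19 were neither. Over all genes tested 17.2% were higher and 15.5% lower. The members were chosen with earlier results of these data known, so their share is not independent of that choice. Of 107 other tested genes of the pathway, 18.7% were higher and 5.61% lower. The members' values did not overlap between the groups for 19 genes. In 16 of these all sham libraries were above the naive range, as for 13.6% of all genes, and in 3 (Ern1, Atf6 and Sel1l) all were below it, as for 9.18%. The members' median log2 fold change was 0.36, beside -0.05 for all genes. The differences were small: 3 of the 25 higher members (Pdia5, Fkbp11 and Kdelr3) reached 2-fold, 12 reached 1.5-fold, and 13 stayed under it. Together the members summed to 2805 to 2941 CPM in sham and 2441 to 2685 CPM in naive libraries. In 16 of the 25 higher members the lowest sham value was that of sham 1. Without sham 1 the counts were 26 higher and 4 lower. With library size alone as the scaling, which moved the median of all genes by 0.26 on the log2 scale, 35 members were higher and 0 lower. Relative to the median of all genes the members' median was then 0.40 higher, as with TMM factors.

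**Figure D1:**
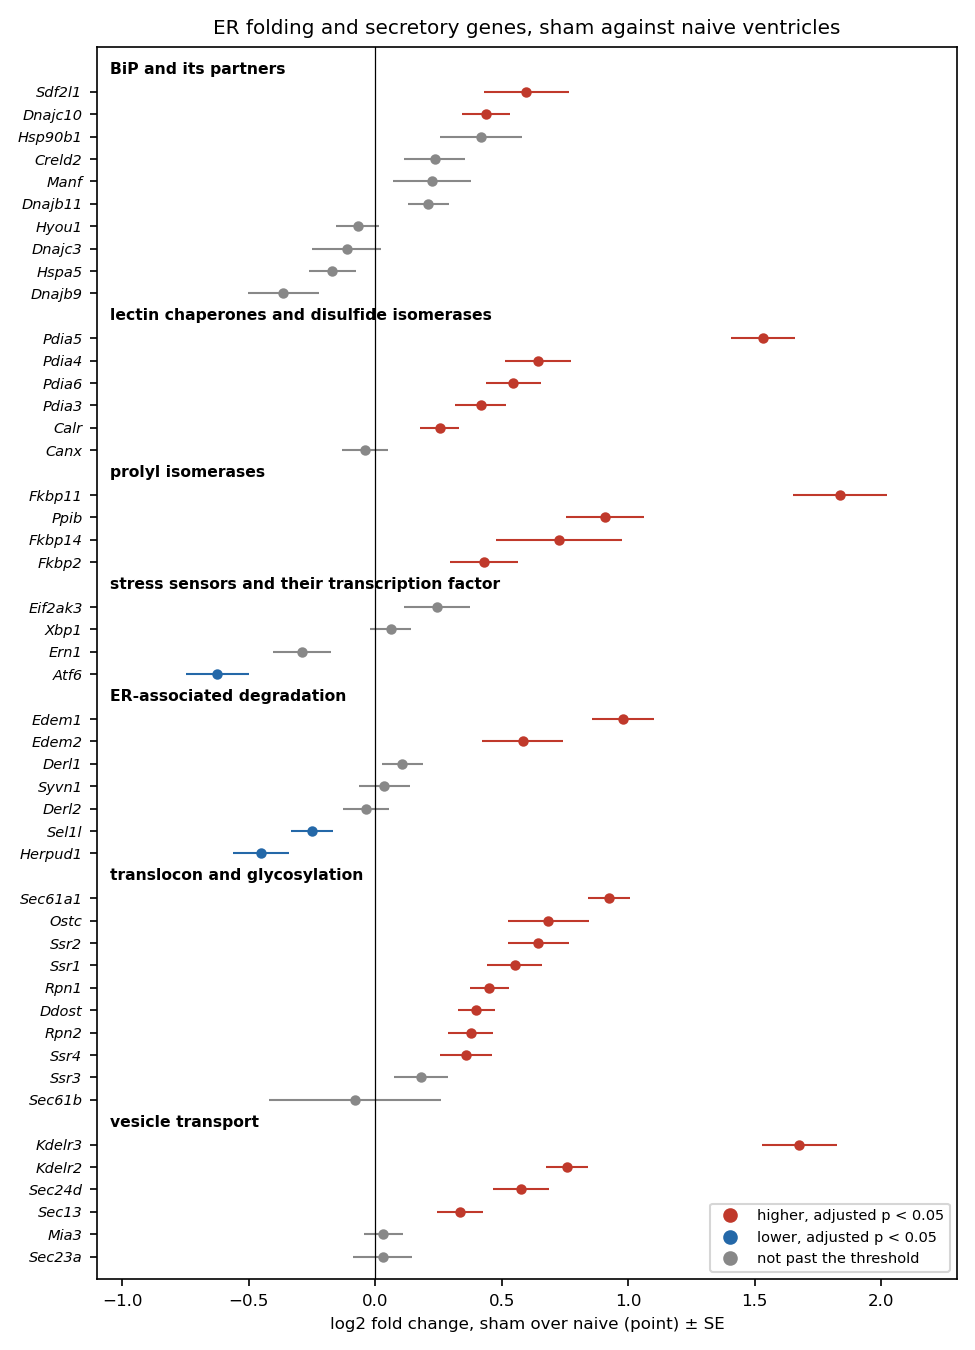
Log2 fold change of each tested member, sham over naive, with its standard error, ordered within its role (red: higher, blue: lower, grey: not past an adjusted p of 0.05). All 4 prolyl isomerases and 8 of 10 translocon and glycosylation genes are called higher, while the stress sensors and ER-associated degradation hold the 3 lower members.

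**Figure D2:**
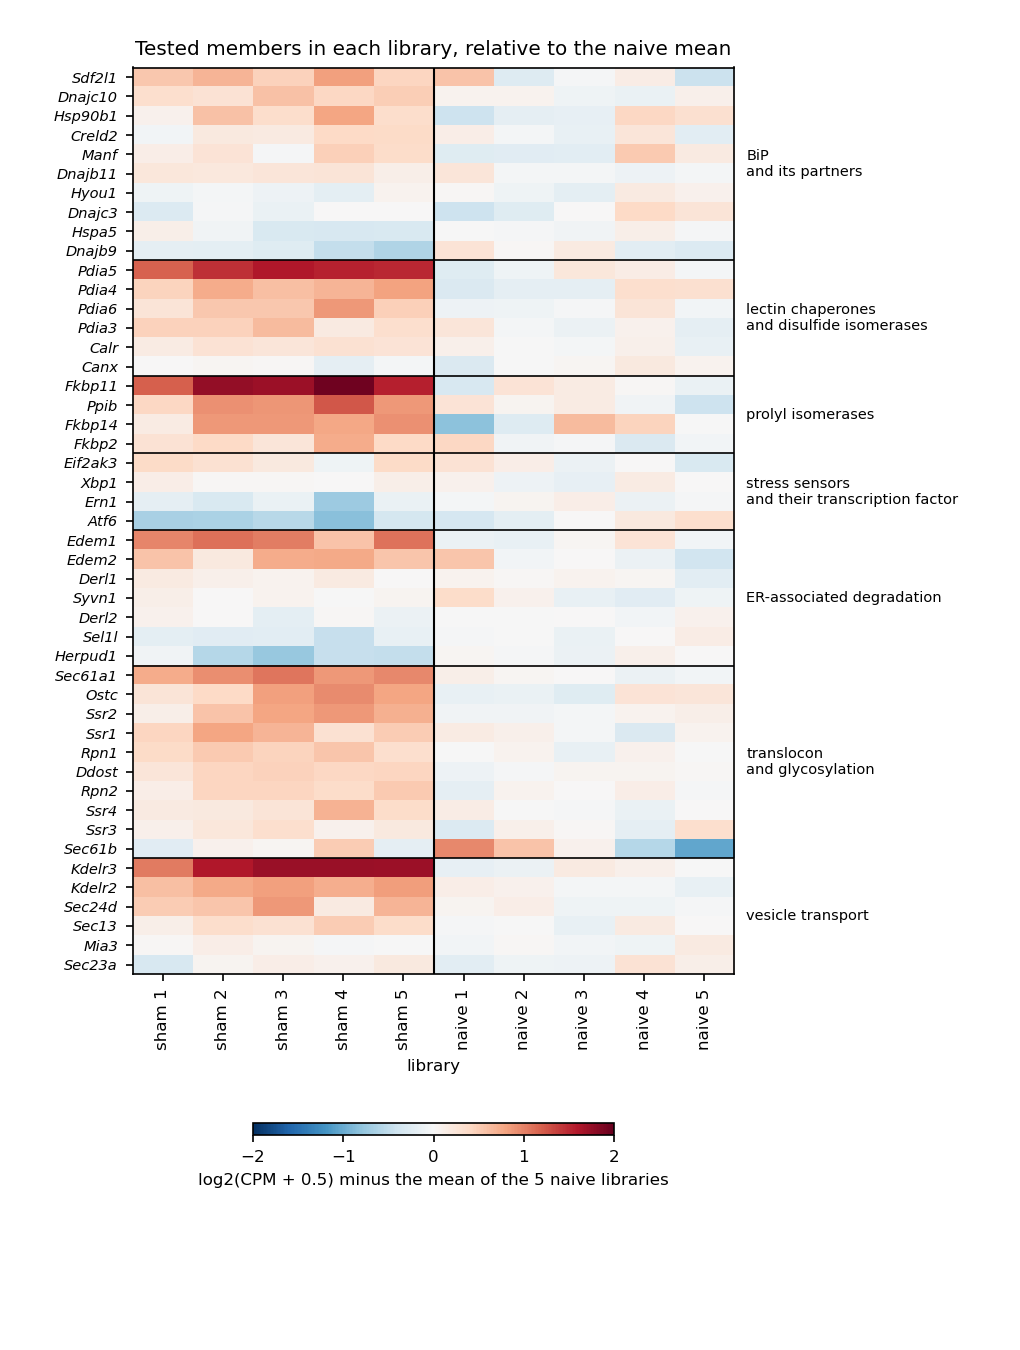
Log2(CPM + 0.5) of each tested member in each library minus its mean over the 5 naive libraries, in rows grouped by role, with sham libraries left and naive libraries right. The darkest sham cells are those of Kdelr3, Fkbp11 and Pdia5, and sham 1 is paler than the other sham libraries in most rows that are red.

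The sequences that the unfolded protein response is known to use were looked for in the promoters, because XBP1 and ATF6 act through them. RefSeq windows on GRCm38.p6, from 250 bases before to 50 after the start of transcription, were at hand for 40 of the 48 members. The ER stress element (ERSE) is CCAAT, 9 bases of any kind and CCACG. ERSE-II is ATTGG, 1 base of any kind and CCACG, and the core bound by XBP1 and ATF6 (UPRE core) is TGACGTGG. Both strands were searched, and the ERSE and ERSE-II share CCACG, and ATTGG is the reverse complement of CCAAT. An ERSE was found for 9 of 40 members, against 0.137% of 27025 genes with a window, ERSE-II for 2 against 0.0444%, and the UPRE core for 3 against 0.714%. Several of these genes are textbook targets of the response, so the shares follow in part from the choice of members. A match is a description of the letters and does not show that a factor was bound. Below are 120 bases, 5′ to 3′ on the gene's strand, for Hspa5, the reference target, and for the called members that hold a motif. They lie at chr2:34771974-34772093 (plus strand), chr8:84847025-84847144 (minus), chr12:17266440-17266559 (plus), chr8:94386322-94386441 (plus), chr15:79516321-79516440 (plus) and chr3:123267413-123267532 (plus). Capitals mark the fixed letters of the ERSE in Hspa5, Calr and Pdia6, of ERSE-II in Herpud1, and of the UPRE core in Kdelr3 and Sec24d; in Calr and Kdelr3 the motif runs on the other strand.
Hspa5: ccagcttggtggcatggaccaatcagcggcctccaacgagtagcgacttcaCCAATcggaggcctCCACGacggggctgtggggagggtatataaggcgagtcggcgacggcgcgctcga
Calr: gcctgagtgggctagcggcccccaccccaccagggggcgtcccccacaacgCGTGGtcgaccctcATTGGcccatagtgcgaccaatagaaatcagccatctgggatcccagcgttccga
Pdia6: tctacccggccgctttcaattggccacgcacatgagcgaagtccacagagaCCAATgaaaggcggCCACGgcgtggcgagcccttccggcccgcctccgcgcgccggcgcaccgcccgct
Herpud1: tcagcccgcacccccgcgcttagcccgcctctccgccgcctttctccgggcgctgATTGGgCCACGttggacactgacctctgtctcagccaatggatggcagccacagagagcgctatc
Kdelr3: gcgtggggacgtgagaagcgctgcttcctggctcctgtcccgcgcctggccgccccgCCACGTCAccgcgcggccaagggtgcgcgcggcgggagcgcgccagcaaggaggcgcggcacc
Sec24d: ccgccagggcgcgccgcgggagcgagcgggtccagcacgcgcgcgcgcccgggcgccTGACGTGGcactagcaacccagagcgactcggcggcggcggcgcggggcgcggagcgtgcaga

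Members with these motifs did not move as 1 group. Of 8 tested members with an ERSE, 2 were higher (Calr and Pdia6), 0 were lower, and the median log2 fold change was 0.14. Of the 2 with ERSE-II, Herpud1 was lower and Dnajb11 did not pass. The UPRE core stood in the promoters of Kdelr3 and Sec24d, which were higher, and of Sec23a, which did not pass. Among 26 members whose window held none of the 3, 17 were higher and 1 lower, with a median of 0.41. The windows of Dnajb9, Pdia4 and Edem1, which are known targets of the response, were among these 26. Hyou1, Manf, Atf6, Derl1, Sec61a1, Ssr2, Ostc and Kdelr2 had no window.

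BiP and its partners, the chaperones that hold unfolded chains in the ER lumen, were higher in 2 of 10 cases, which is near the share over all genes, and lower in 0. Their median log2 fold change was 0.22. Hspa5 encodes BiP, the central chaperone of the lumen and the standard readout of ER stress (chromosome 2, 34771970 to 34777547, plus strand). It had 279.6, 245, 210.3, 208 and 209 CPM in sham 1 to 5, against 258, 255, 245, 281 and 256 CPM in naive 1 to 5. Sham 3, 4 and 5 lay well below the naive range, sham 2 was level with its lower end, and sham 1 was next to its highest value. The log2 fold change was -0.17 ± 0.09, which did not pass (edgeR adjusted p = 0.186). Without sham 1 it was -0.25 and passed (adjusted p = 0.0336), and with library size alone as the scaling it was 0.10. Hyou1, the nucleotide exchange factor of BiP, was at -0.07 ± 0.09 and also did not pass.

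Both higher members of this role act beside BiP. Dnajc10 (ERdj5) is a BiP co-chaperone that reduces disulfide bonds (chromosome 2, 80315466 to 80354043, plus strand). It had 21.7, 21.0, 26.0, 22.9 and 24.2 CPM in sham 1 to 5, against 17.8, 17.8, 15.96, 15.5 and 18.2 CPM in naive 1 to 5. The groups did not overlap, and Dnajc10 rose 1.35-fold (log2 fold change 0.44 ± 0.09, edgeR adjusted p = 0.00224). Sdf2l1 is a partner of the co-chaperone ERdj3 (chromosome 16, 17130138 to 17132383, minus strand). Its values were 12.99, 14.3, 12.2, 15.8 and 11.98 CPM in sham 1 to 5, against 13.2, 7.26, 8.61, 9.80 and 6.38 CPM in naive 1 to 5. Naive 1 lay within the sham range and the other naive libraries below it, and Sdf2l1 rose 1.51-fold (0.60 ± 0.17 on the log2 scale, edgeR adjusted p = 0.0120).

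Several partners of BiP lay close to the threshold. The HSP90 of the lumen, Hsp90b1 (GRP94), which shares 15.7% of its exon bases with a gene on the opposite strand, was at 0.42 ± 0.16 on the log2 scale (edgeR adjusted p = 0.0628) and passed without sham 1, naive 4 or naive 5 (adjusted p of 0.0185 to 0.0380) and in DESeq2 (0.0384) and limma voom (0.00164). Dnajb11 (ERdj3) was at 0.21 ± 0.08 (adjusted p = 0.0633) and passed without naive 1, sham 4 or sham 5 (0.0121 to 0.0468) and in DESeq2 (0.0320) and limma voom (0.00926). Dnajb9 (ERdj4), which restrains IRE1, was at -0.36 ± 0.14 (adjusted p = 0.0588) and passed as lower without naive 4 or naive 5 (0.0402 and 0.0284) and in limma voom (0.00775). Dnajc3, at -0.11 ± 0.14, Manf, a secreted stress-induced protein, at 0.22 ± 0.15, and Creld2, a disulfide isomerase-like protein, at 0.24 ± 0.12, did not pass. Manf passed as higher without naive 4 (adjusted p = 0.0378). With the replicate number as a block, Hsp90b1 (edgeR adjusted p = 0.00191) and Dnajb11 (0.0440) passed as higher and Dnajb9 (0.0182) as lower. Within libraries, Dnajb9 was lower relative to Dnajb11 and Dnajc10. Its log2 ratio to Dnajc3 differed by -0.27 ± 0.66 (95% interval) and did not pass (exact permutation p = 0.365, adjusted 0.434). The log2 ratio of Dnajb9 to Dnajb11 differed by -0.57 ± 0.26 and that of Dnajb9 to Dnajc10 by -0.79 ± 0.39 between sham and naive ventricles (95% intervals). These ratios do not depend on how libraries are scaled. They were 2 of 44 pairs of family members compared with an exact two-sided permutation test over the 10 libraries, of which 9 passed, each with p = 0.00794, the smallest value that the test can give, and an adjusted p of 0.0388.

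The lectin chaperones and disulfide isomerases were higher in 5 of 6 cases and lower in 0, with a median of 0.48. Pdia5 is a protein disulfide isomerase of the ER lumen (chromosome 16, 35397312 to 35490873, minus strand). It had 13.3, 16.2, 18.05, 17.3 and 16.9 CPM in sham 1 to 5, against 4.64, 5.23, 6.64, 6.27 and 5.43 CPM in naive 1 to 5. The lowest sham library stood at about 2 times the highest naive library, and Pdia5 rose 2.89-fold (1.53 ± 0.13 on the log2 scale, edgeR adjusted p = 1.88e-07). Pdia6, a thioredoxin-like isomerase that works with BiP (chromosome 12, 17266545 to 17284770, plus strand), had 65.1, 78.5, 78.5, 99.1 and 75.1 CPM in sham 1 to 5, against 50.4, 51.2, 53.1, 64.9 and 52.1 CPM in naive 1 to 5. Its groups did not overlap, though sham 1 and naive 4 nearly met, and Pdia6 rose 1.46-fold (0.55 ± 0.11, adjusted p = 0.00117). Pdia4, also known as ERp72 (chromosome 6, 47796141 to 47813430, minus strand), had 30.2, 37.4, 33.9, 35.8 and 39.2 CPM in sham 1 to 5, against 17.97, 19.4, 19.5, 28.0 and 27.8 CPM in naive 1 to 5. Naive 4 and 5 were the highest naive libraries but below every sham library, and Pdia4 rose 1.56-fold (0.64 ± 0.13, adjusted p = 0.00141).

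The other members of this role moved less or not at all. Pdia3 (ERp57), which folds glycoproteins together with calreticulin and calnexin, averaged 81.2 ± 9.52 CPM in sham and 60.9 ± 7.23 CPM in naive ventricles (SD, n = 5 each) and rose 1.33-fold (edgeR adjusted p = 0.00497), with sham 4 inside the naive range. Calreticulin (Calr), the soluble lectin chaperone that also buffers calcium, averaged 375 ± 13.6 CPM in sham and 314 ± 22.4 CPM in naive ventricles and rose 1.19-fold (adjusted p = 0.0190). Without naive 3 or naive 5 the Calr call was lost (0.0549 and 0.0546). A Calr pseudogene is in the table, and reads of close copies may be split. Calnexin (Canx), the membrane-bound lectin chaperone, was at -0.04 ± 0.09 (adjusted p = 0.776). Relative to calnexin, calreticulin was higher by 0.29 ± 0.27 on the log2 scale, which did not pass after adjustment over the pairs (exact permutation p = 0.0397, adjusted 0.0919). Within libraries, the log2 ratio of Pdia3 to Pdia5 differed by -1.12 ± 0.41 and that of Pdia4 to Pdia5 by -0.87 ± 0.34. That of Pdia5 to Pdia6 differed by 1.00 ± 0.24, and all 3 passed. These ratios restate the larger rise of Pdia5 given above.

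The prolyl isomerases, which turn peptide bonds before proline, a common residue of collagen, were higher in 4 of 4 cases with a median of 0.82. Fkbp11 is an FK506-binding protein of the ER membrane abundant in secretory cells (chromosome 15, 98724366 to 98728198, minus strand). It had 5.37, 8.12, 7.85, 9.42 and 7.01 CPM in sham 1 to 5, against 1.55, 2.58, 2.37, 2.12 and 1.83 CPM in naive 1 to 5. All sham values exceeded the naive values by about 2 times or more, with sham 1 lowest. Fkbp11 rose 3.57-fold (1.84 ± 0.19 on the log2 scale, edgeR adjusted p = 1.72e-06), the largest fold change among the tested members in this fit. Per exon length it remained among the scarce members, at 2.79 CPM per kilobase in sham and 0.772 in naive ventricles. Cyclophilin B (Ppib), which acts on collagen chains (chromosome 9, 66060222 to 66066623, plus strand), had 17.6, 25.1, 24.6, 31.8 and 24.3 CPM in sham 1 to 5, against 15.9, 13.7, 14.7, 12.5 and 9.66 CPM in naive 1 to 5. The groups did not overlap, with sham 1 just above naive 1. Ppib rose 1.88-fold (0.91 ± 0.15, adjusted p = 3.03e-04). It shares 25% of its exon bases with Snx22 on the opposite strand, and since the libraries do not mark strand the origin of reads there is uncertain. Snx22 itself averaged 2.83 CPM in sham and 2.61 CPM in naive ventricles.

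Fkbp2, a small luminal isomerase (chromosome 19, 6977741 to 6980501, minus strand), had 22.3, 24.1, 21.5, 30.8 and 23.9 CPM in sham 1 to 5, against 24.4, 17.2, 17.9, 14.7 and 17.5 CPM in naive 1 to 5. Naive 1 lay within the sham range. Fkbp2 rose 1.35-fold (0.43 ± 0.13, edgeR adjusted p = 0.0212), a call that was lost without naive 2 or naive 4 (0.0524 and 0.0545). Fkbp14, a luminal isomerase whose loss in humans causes a connective tissue disorder, averaged 5.52 ± 1.13 CPM in sham and 3.32 ± 1.41 CPM in naive ventricles and rose 1.65-fold (adjusted p = 0.0345). Its call was lost when any of 7 libraries (sham 2, 3, 4 or 5, naive 1, 2 or 5) was left out, at adjusted p values of 0.0545 to 0.0891. Fkbp14 shares 5.01% of its exon bases with Plekha8 on the opposite strand. Relative to both other FK506-binding members Fkbp11 was higher in sham, by a log2 ratio of 1.02 ± 0.61 to Fkbp14, while the ratio of Fkbp2 to Fkbp11 differed by -1.41 ± 0.56. Both ratios passed the exact permutation test.

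**Figure D3:**
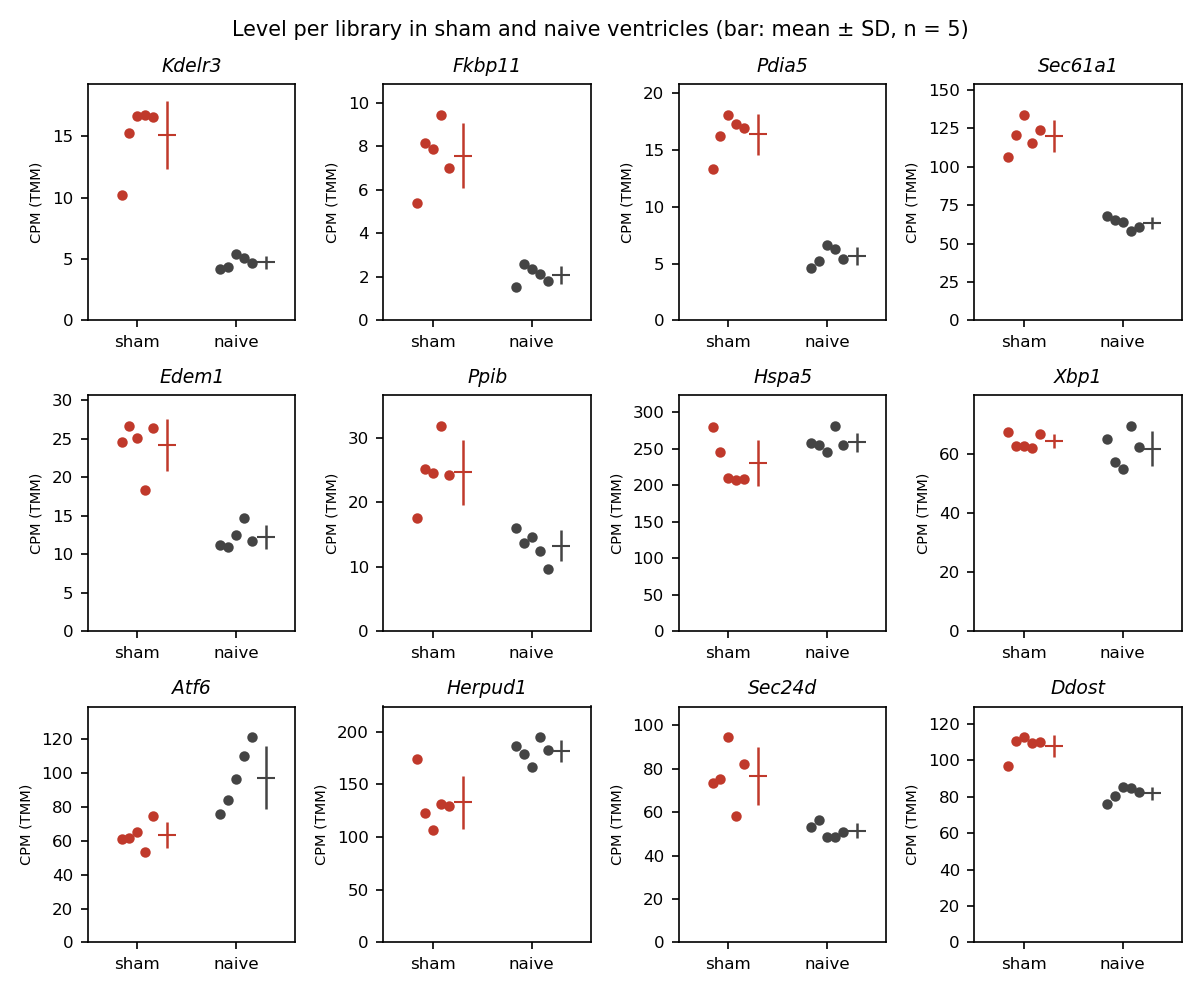
TMM-normalised CPM of 12 members in each library (points, sham left, naive right), with mean and SD (n = 5) beside them. Kdelr3, Fkbp11, Pdia5, Sec61a1 and Edem1 separate the groups widely, Hspa5 and Xbp1 overlap, and Atf6 and Herpud1 are lower in sham.

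The genes of the 3 stress sensors and of Xbp1 were higher in 0 of 4 cases and lower in 1, with a median of -0.11. Atf6, the sensor that is cut in the Golgi to release a transcription factor (chromosome 1, 170704674 to 170867771, minus strand), had 61.2, 61.5, 65.1, 53.5 and 74.8 CPM in sham 1 to 5, against 75.6, 83.9, 96.4, 109.9 and 121 CPM in naive 1 to 5. The highest sham library nearly met the lowest naive library. The naive libraries differed widely among themselves and rose in order of library number. What that order stands for was not tested. Atf6 fell, with a log2 fold change of -0.62 ± 0.12 (edgeR adjusted p = 0.00118). With library size alone the value was -0.36 and did not pass (adjusted p = 0.0624). Xbp1, the factor whose RNA is spliced by IRE1 (chromosome 11, 5520659 to 5525893, plus strand), had 67.4, 62.7, 62.7, 62.0 and 66.5 CPM in sham 1 to 5, against 65.0, 57.2, 54.7, 69.2 and 62.1 CPM in naive 1 to 5. The sham values lay inside the naive range. The log2 fold change of Xbp1 was 0.06 ± 0.08 (adjusted p = 0.605), with an approximate 95% interval of -0.10 to 0.22. With library size alone Xbp1 was at 0.33 and passed as higher (edgeR adjusted p = 0.00772).

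Ern1, which encodes IRE1, averaged 25.5 ± 4.12 CPM in sham and 31.1 ± 2.12 CPM in naive ventricles (SD, n = 5 each), with every sham library below the naive range. Sham 4, at 18.5 CPM, lay far below it, and sham 3 and 5 just below it. Ern1 was at -0.29 ± 0.11 on the log2 scale and did not pass (edgeR adjusted p = 0.0629). It passed as lower in limma voom (0.0104) and with the replicate number as a block (edgeR adjusted p = 0.0179). With library size alone Ern1 was at -0.02 and did not pass (edgeR adjusted p = 0.927). Eif2ak3, which encodes PERK, was at 0.24 ± 0.13 (adjusted p = 0.169) and passed as higher without sham 4 (0.0397). It also passed as higher in limma voom (adjusted p = 0.0209) and in edgeR with library size alone (0.00628). Of the 3 ratios among the sensor genes 1 passed. The log2 ratio of Atf6 to Eif2ak3 changed by -0.85 ± 0.53 and passed the exact permutation test over pairs, whereas that of Ern1 to Eif2ak3, at -0.54 ± 0.31, did not (p = 0.0159, adjusted 0.0635), nor did that of Ern1 to Atf6, at 0.31 ± 0.36 (p = 0.103, adjusted 0.175).

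ER-associated degradation went both ways, with 2 members higher, 2 lower and 3 neither of the 7 tested, and a median of 0.04. These few calls are 28.6% each way, beside 17.2% higher and 15.5% lower over all genes. Edem1, a mannosidase-like protein that marks misfolded glycoproteins for export and a known target of XBP1 (chromosome 6, 108828641 to 108859356, plus strand), had 24.5, 26.6, 25.1, 18.3 and 26.3 CPM in sham 1 to 5, against 11.2, 11.0, 12.5, 14.7 and 11.7 CPM in naive 1 to 5. The groups did not overlap, and sham 4 was the lowest sham library. Edem1 rose 1.97-fold (0.98 ± 0.12, edgeR adjusted p = 1.58e-05). Its relative Edem2, which makes the first mannose cut of that route (chromosome 2, 155701677 to 155729475, minus strand), had 18.1, 13.8, 20.5, 20.6 and 17.9 CPM in sham 1 to 5, against 17.8, 11.5, 12.1, 11.0 and 9.09 CPM in naive 1 to 5. Naive 1 fell within the sham range. Edem2 rose 1.498-fold (0.58 ± 0.16, adjusted p = 0.0107).

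Herpud1, a membrane protein that recruits the degradation machinery and a target of the stress response (chromosome 8, 94386438 to 94395377, plus strand), was lower in sham. It had 174, 122, 107, 131 and 129.7 CPM in sham 1 to 5, against 186, 179, 167, 195 and 182 CPM in naive 1 to 5. Sham 1 lay within the naive range and the other 4 sham libraries far below it. The log2 fold change was -0.45 ± 0.11 (edgeR adjusted p = 0.00488), and with library size alone it was -0.19 and did not pass (adjusted p = 0.216). Sel1l, the adaptor of the ubiquitin ligase, averaged 61.5 ± 4.97 CPM in sham and 73.1 ± 5.25 CPM in naive ventricles (SD, n = 5 each) and was lower by a small amount, at -0.25 ± 0.08 (adjusted p = 0.0293). That call was lost without sham 2, 3, 4 or 5 or without naive 2 or 5 (0.0501 to 0.0935), and the value was 0.02 with library size alone. It was also lost in limma voom (0.0511), with no filter on low counts (0.157) and without naive 1 and sham 4 together (0.0761). The ligase itself, Syvn1 (HRD1), at 0.04 ± 0.10, and the channel proteins Derl1, at 0.11 ± 0.08, and Derl2, at -0.04 ± 0.09, did not pass. Derl3, the derlin of secretory cells, was too low to be tested, with 38 counts over the 5 sham and 35 over the 5 naive libraries.

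The translocon and glycosylation genes were higher in 8 of 10 cases and lower in 0, with a median of 0.43. Sec61a1, the pore subunit of the channel through which chains enter the ER (chromosome 6, 88503579 to 88518905, minus strand), had 106, 121, 133, 116 and 124 CPM in sham 1 to 5, against 68.2, 65.2, 63.8, 58.0 and 61.1 CPM in naive 1 to 5. The lowest sham library was more than 1.5 times the highest naive library. Sec61a1 rose 1.90-fold (0.92 ± 0.08 on the log2 scale, edgeR adjusted p = 3.93e-07). It shares 8.16% of its exon bases with a gene on the opposite strand. The small subunit Sec61b was at -0.08 ± 0.34, with a 95% interval of -0.75 to 0.59. Its naive values fell in order of library number, from 20.6 CPM in naive 1 to 4.80 CPM in naive 5. The signal sequence receptor subunits, which sit beside the channel, were higher for Ssr1 (0.55 ± 0.11), Ssr2 (0.65 ± 0.12, with 12.8% of its exon bases shared) and Ssr4 (0.36 ± 0.10), while Ssr3 was at 0.18 ± 0.11 and passed when naive 5 was left out (adjusted p = 0.0469). None of the 6 ratios among these 4 subunits passed the exact permutation test.

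The oligosaccharyltransferase, the enzyme complex that transfers the glycan onto asparagine, had all 4 subunits among the members higher. The other subunits listed, on the wider glycosylation list, did not pass. The catalytic subunits Stt3a, at 0.43 ± 0.20 (edgeR adjusted p = 0.109), and Stt3b, at -0.11 ± 0.13 (0.530), are among them, with Dad1, Ost4, Tusc3, Magt1, Krtcap2 and Tmem258 at -0.38 to 0.30 on the log2 scale. Ribophorin I (Rpn1, chromosome 6, 88084482 to 88105304, plus strand) had 77.7, 85.5, 81.0, 87.9 and 75.7 CPM in sham 1 to 5, against 59.1, 62.6, 53.6, 63.3 and 59.5 CPM in naive 1 to 5. Every sham library was above the naive range, and Rpn1 rose 1.37-fold (0.45 ± 0.08, edgeR adjusted p = 3.54e-04). Ddost (OST48, chromosome 4, 138304730 to 138312628, plus strand) had 97.0, 111, 113, 109 and 109.9 CPM in sham 1 to 5, against 75.8, 80.6, 85.1, 84.7 and 82.6 CPM in naive 1 to 5. Here too the groups did not overlap, and sham 1 was the lowest sham library. Ddost rose 1.32-fold (0.40 ± 0.07, adjusted p = 6.36e-04). Rpn2, with 5.46% of its exon bases shared, was at 0.38 ± 0.09 and Ostc at 0.68 ± 0.16. Within libraries Rpn1, Rpn2 and Ddost kept close proportions. The log2 ratio of Rpn2 to Ddost differed by -0.02 ± 0.11 between sham and naive ventricles, that of Rpn1 to Ddost by 0.05 ± 0.17 and that of Rpn1 to Rpn2 by 0.08 ± 0.21 (95% intervals, exact permutation p = 0.667, 0.524 and 0.429). The ratio to Ostc differed by -0.22 ± 0.38 for Rpn1, -0.30 ± 0.35 for Rpn2 and -0.27 ± 0.36 for Ddost, with wider intervals, and none of the 3 passed (exact permutation p = 0.206, 0.103 and 0.127). These intervals bound the differences and do not show that there was none.

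Vesicle transport genes were higher in 4 of 6 cases and lower in 0, with a median of 0.46. KDEL receptors bind chaperones that have escaped to the Golgi and return them to the ER. Kdelr3 (chromosome 15, 79516411 to 79527739, plus strand) had 10.2, 15.3, 16.6, 16.7 and 16.5 CPM in sham 1 to 5, against 4.16, 4.31, 5.37, 5.096 and 4.67 CPM in naive 1 to 5. Sham 1 stood well below the other sham libraries and still at about 2 times the highest naive value. Kdelr3 rose 3.20-fold (1.68 ± 0.15, edgeR adjusted p = 3.84e-07). Kdelr2 (chromosome 5, 143403838 to 143421901, plus strand) had 52.6, 59.0, 61.7, 57.2 and 61.8 CPM in sham 1 to 5, against 37.8, 36.7, 33.5, 33.7 and 31.3 CPM in naive 1 to 5. Its groups were also apart, and Kdelr2 rose 1.69-fold (0.76 ± 0.08, adjusted p = 3.52e-06). The log2 ratio of Kdelr2 to Kdelr3 differed by -0.89 ± 0.34, so that Kdelr3 had the larger relative increase, and passed the exact permutation test. Per exon length Kdelr2 was still the more abundant, at 32.0 CPM per kilobase in sham and 18.9 in naive ventricles, beside 10.7 CPM per kilobase in sham and 3.35 in naive ventricles for Kdelr3. Kdelr1, the receptor that is not a member, averaged 181 ± 5.75 CPM in sham and 171 ± 25.4 CPM in naive ventricles (SD, n = 5 each) and did not pass, at 0.09 ± 0.09 on the log2 scale (adjusted p = 0.518).

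Sec24d, a cargo-binding subunit of the COPII coat needed for procollagen export in fish and humans (chromosome 3, 123267455 to 123365641, plus strand), had 73.5, 75.5, 94.5, 58.2 and 82.3 CPM in sham 1 to 5, against 53.2, 56.4, 48.7, 48.5 and 50.8 CPM in naive 1 to 5. Sham 4 was close to the highest naive library and the other sham libraries were well above it. Sec24d rose 1.49-fold (0.58 ± 0.11, edgeR adjusted p = 8.31e-04). Sec13, of the outer coat, rose 1.26-fold (adjusted p = 0.00906). Sec23a, of the inner coat, at 0.03 ± 0.12, and Mia3 (TANGO1), which loads procollagen into vesicles, at 0.03 ± 0.08, did not pass. The log2 ratio of Sec23a to Sec24d differed by -0.53 ± 0.41 (95% interval), which did not pass after adjustment (exact permutation p = 0.0238, adjusted 0.0806). Mia3 had a 95% interval of -0.12 to 0.18 on the log2 scale.

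Levels per exon length placed the members in an order that the comparison changed little at the top. Calr was highest, at 130.1 CPM per kilobase in sham and 109 in naive ventricles. Herpud1 followed at 56.9 CPM per kilobase in sham and 77.9 in naive ventricles, then Hspa5 at 54.5 CPM per kilobase in sham and 61.2 in naive ventricles and Ddost at 50.9 CPM per kilobase in sham and 38.6 in naive ventricles. In sham the values of Herpud1, Hspa5 and Ddost lay close together, and in naive ventricles Herpud1 and Hspa5 stood above Ddost. The scarcest member was Derl3, at 0.218 CPM per kilobase in sham and 0.294 in naive ventricles.

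Other genes of the pathway, 107 tested of 110 listed, were higher in 20 cases and lower in 6, or 18.7% and 5.61%, with a median log2 fold change of 0.08. The share higher is near the 17.2% of all genes, and so are those of the lists on translocation (22.2%), glycosylation (12.5%) and Golgi return (20%). Oxidative folding had 5 of 11 higher. Txndc5, a disulfide isomerase, was at 109.9 ± 12.3 CPM in sham and 56.5 ± 2.77 CPM in naive ventricles (SD, n = 5 each) and rose by 0.96 ± 0.09 on the log2 scale (edgeR adjusted p = 5.38e-07). Prdx4, the peroxiredoxin of the ER, rose by 1.00 ± 0.12 (adjusted p = 1.03e-05). Translocation and signal peptide removal had 4 of 18 higher, among them Tram2 at 0.68 ± 0.11 and Tram1 at 0.47 ± 0.11, which assist chains at the translocon. Glycosylation and glycan trimming had 2 of 16 higher, Mogs at 0.44 ± 0.10 and Prkcsh at 0.25 ± 0.07, both of glucose removal. COPI and Golgi return had 3 of 15 higher, with the cargo receptor Tmed3 at 0.95 ± 0.11 and the GTPase Arf4 at 0.54 ± 0.09.

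The remaining ER lists were mixed. Other genes of ER-associated degradation had 1 of 15 higher, the lectin Os9 at 0.64 ± 0.08, and 3 lower. Other COPII and ER exit genes had 1 of 17 higher, the cargo receptor Surf4 at 0.26 ± 0.07, and 1 lower, Sec24a at -0.48 ± 0.14, a relative of Sec24d. Genes downstream of the sensors had 4 of 15 higher and 2 lower, Wfs1 at -0.41 ± 0.09 and Ppp1r15a at -0.27 ± 0.10. Creb3l1 (OASIS), an ER-bound transcription factor that in mouse bone drives type I collagen, averaged 121 ± 27.7 CPM in sham and 39.2 ± 9.64 CPM in naive ventricles and rose by 1.63 ± 0.17 (edgeR adjusted p = 5.61e-06), and Sesn2, a stress-induced regulator, rose by 0.58 ± 0.12. Atf6b, a relative of Atf6, was higher, at 0.34 ± 0.10 (adjusted p = 0.0141), where Atf6 itself was lower. Atf4, the factor downstream of PERK, was at 0.20 ± 0.08 with an adjusted p of 0.0499, and its target Ddit3 (CHOP) at -0.03 ± 0.12 did not pass. Wfs1, Ppp1r15a, Atf6b, Atf4, Ddit3, Kdelr1 and the catalytic subunits Stt3a and Stt3b were named after their values had been seen.

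A pair of neighbouring lists lay on either side of the members. Over all genes tested 17.2% were higher and 15.5% lower. Of 26 cytosolic chaperones 0 were higher and 9 (34.6%) lower, with a median of -0.26. Taken per library relative to the naive mean, their median log2 level ran from -0.29 to -0.14 in sham. In naive libraries it ran from -0.17 to 0.29, highest in naive 4, so the groups overlapped. Their summed level did not overlap, at 2539 to 2791 CPM in sham and 3259 to 3937 CPM in naive libraries. Of 17 genes of collagen hydroxylation, folding and processing 11 (64.7%) were higher and 0 lower, with a median of 0.78. Most of these work in the same ER lumen, but Bmp1 and Pcolce, a secreted procollagen protease and its enhancer, act outside the cell and were both among the higher ones. The members' median of 0.36 lay between these values.

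**Figure D4:**
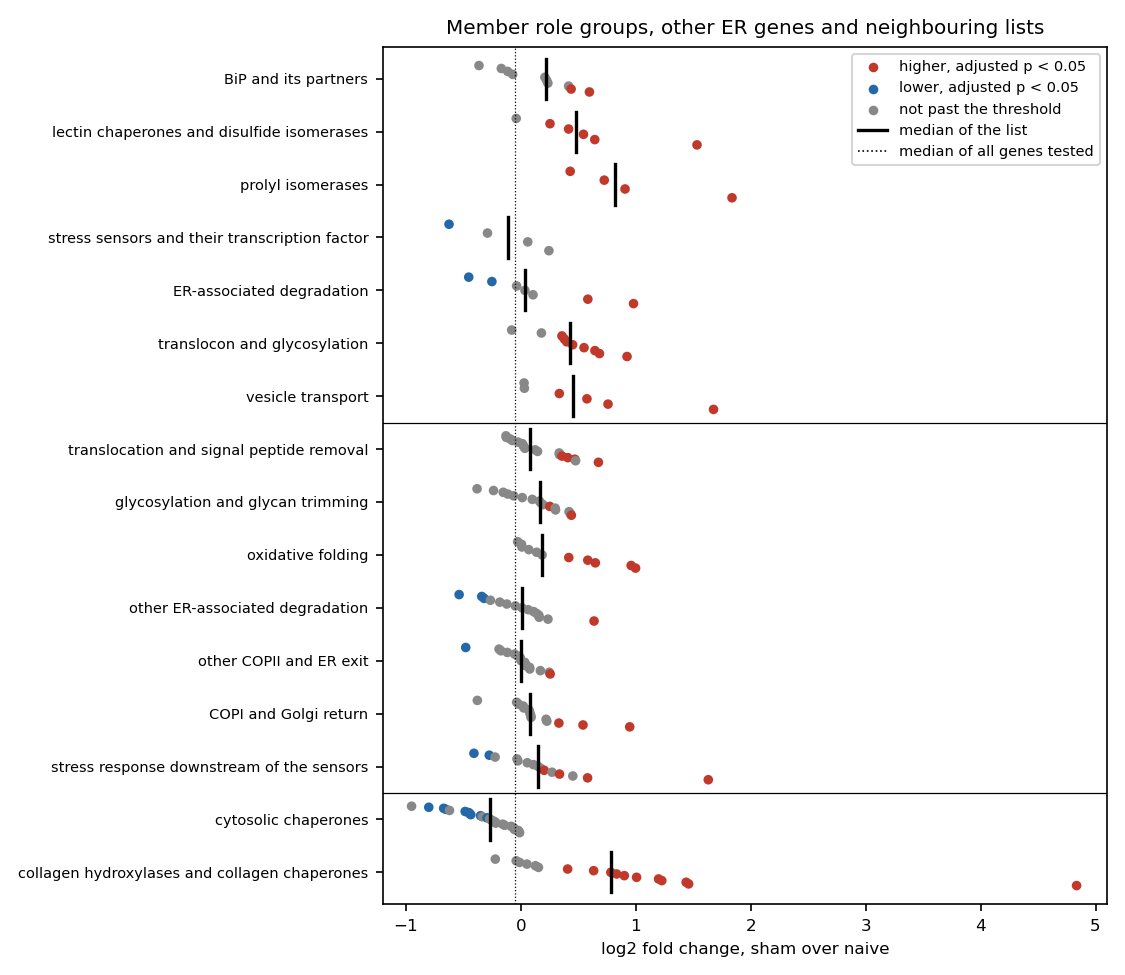
Log2 fold change, sham over naive, of each tested gene (points) in the member roles (top), in other ER lists (middle) and in the cytosolic and collagen lists (bottom), with each list's median as a bar and the median of all genes as a dotted line. Medians run from -0.26 in cytosolic chaperones to 0.82 in the prolyl isomerases.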

How the data were processed

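Polyadenylated RNA was made into unstranded single-end libraries, per the labels' protocols. As deposited, the table holds whole-number counts per Ensembl gene by HTSeq on GRCm38, neither pooled nor normalised, per the file headers. Gene GC content in percent is deposited beside them and served for the GC correction. The submitters' processing notes name Bowtie2, TopHat2 2.1.1, HTSeq, DESeq and edgeR; how strand and ambiguous reads were handled, and the annotation release, is not given there.

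Of 41264 rows, 574 repeated a gene and were collapsed. Genes kept by filterByExpr (minimum count 10, minimum total 15) were tested with edgeR 4.0.16, the quasi-likelihood F test with robust estimation and TMM factors, and adjusted by Benjamini-Hochberg over 13622 genes. Log2 fold changes are sham over naive. Errors are SE for fold changes, derived from the F statistic, and SD for CPM. For differences of within-family log2 ratios they are half-widths of 95% intervals. The 95% intervals of fold changes use a normal approximation to the SE and may be too narrow. Within-family log2 ratios (0.5 added to counts) were compared by exact permutation of the group labels (252 arrangements), with adjustment over 44 pairs. These pairs were added after gene values had been seen. Intervals and floors cover counting error or the spread between libraries only. The labels do not say whether the mice of a group were handled separately, so the p-values reflect only differences among these samples, which may be technical. None of the 20 pairs of libraries within a group agreed within sampling noise, with a chi-square per degree of freedom of 9.93 to 95.4.

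The members and all lists were chosen with earlier results of these data known. Values per library are given for Hspa5, Xbp1, Atf6 and, in each role, the called members with the 3 smallest p. Coordinates and exon lengths are from GENCODE M21 on GRCm38. Of the members, 9 share over 5% of exon bases with a gene on the opposite strand and are uncertain. They are Hsp90b1, Manf, Ppib, Fkbp14, Eif2ak3, Sec61a1, Ssr2, Rpn2 and Sec23a. Alternatives were DESeq2 1.42.0, limma 3.58.1 voom with sample weights, other scalings and filters, no robust estimation, removal of the 20 most abundant genes, GC correction, the replicate number as a block, and libraries left out, in R 4.3.3.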

Additional observations from a re-analysis of the deposited data

Results flagged for a closer look

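In 10 of 94 groups of 5 libraries checked, 1 library stood apart from the other 4 by a gap test on CPM, which chance does in about 1 of 20 groups. In sham, sham 1 was lowest for Kdelr3, at 10.2 CPM beside 15.3 or more, for Ddost, at 97.0 beside 109 or more, and for Fkbp14, at 3.55 beside 5.67 or more. Sham 4 was lowest for Edem1, at 18.3 CPM beside 24.5 or more, and for Sel1l, at 52.8 beside 62.3 or more, and highest for Fkbp2, at 30.8 beside 24.1 or less. Sham 5 was lowest for Dnajb11, at 45.1 CPM beside 48.6 or more. In naive, naive 1 was highest for Dnajb11, at 49.3 CPM beside 40.6 or less, naive 4 highest for Pdia6, at 64.9 beside 53.1 or less, and naive 5 lowest for Derl1, at 41.4 beside 49.2 or more. Kdelr3, Ddost, Edem1 and Pdia6 passed with each library left out in turn, while Fkbp2, Fkbp14 and Sel1l each lost their call without some library and Dnajb11 gained one.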

How the results depend on the processing

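Of the 28 called members, 22 kept direction and call under all 23 alternatives. Calr, Fkbp2, Fkbp14 and Sel1l lost their call without single libraries, Sel1l also with voom and with no filter, Sel1l and Fkbp14 also without naive 1 and sham 4 together, and Atf6, Herpud1 and Sel1l with library size alone. With 1 library left out, 23 to 26 members were higher and 2 to 4 lower. With library size alone 35 were higher and 0 lower, the members' median was 0.62 beside 0.22 for all genes, and uncalled or weakly called members turned positive: Hspa5 0.10, Hyou1 0.20, Dnajc3 0.15, Canx 0.23, Sel1l 0.0155, Derl2 0.23 and Sec61b 0.19. With voom Hyou1 was at 0.0538, and 31 members were higher and 4 lower. Same-numbered sham and naive libraries deviated together with correlations of 0.227, 0.035, 0.008, 0.293 and 0.292, and 3 of 5 sham libraries correlated best with their own number. As not every correlation was over 0.1, the numbers were not taken as pairs in the main fit. The second principal component also fell with library number in naive libraries. What the numbers stand for is not given in the labels, and whether they mark a batch was not tested. With the replicate block 27 members were higher and 5 lower, the added ones being Hsp90b1 (adjusted p = 0.00191) and Dnajb11 (0.0440) as higher and Dnajb9 (0.0182) and Ern1 (0.0179) as lower, and Sec61b was at 0.0430. With the GC correction Canx was at 0.00507, Xbp1 at -0.0221, Syvn1 at -0.0510 and Derl2 at 0.00259, and with GC correction and replicate block together 5 members were lower, with Canx at 0.00873, Xbp1 at -0.0166, Syvn1 at -0.0476 and Sec61b at 0.0594. Without naive 1 and sham 4 together 26 members were higher and 2 lower, with Sec61b at 0.0728 and Sec23a at -0.000737. With single libraries left out the sign changed for Canx (-0.109 to 0.0236), Syvn1 (-0.0200 to 0.136), Derl2 (-0.0702 to 0.00336), Sec61b (-0.29 to 0.19) and Sec23a (-0.0240 to 0.107), none of them called. The cause of these changes was not tested. Depth limited Derl3, which was too low to be tested.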
